A study of Homo sapiens with 10 samples.

Results

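The replication-dependent histone genes are the clustered genes for the linker histone H1 and the core histones H2A, H2B, H3 and H4 from which new chromatin is built. They were taken as the protein-coding genes of GENCODE release 44 with a symbol of the form H1-1 to H1-6, or H2AC, H2BC, H3C or H4C followed by a number. All 69 such genes were present among the 78894 genes of the deposited table: 6 for H1, 17 for H2A, 18 for H2B, 13 for H3 and 15 for H4. On the human genome (build GRCh38), 55 lay on chromosome 6, 11 in a first cluster on chromosome 1, 2 in a second cluster on chromosome 1, and H4C16 on chromosome 12.

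The study asked how cells respond to cysteine supply. HEK293T cells, a human line derived from embryonic kidney and carrying the SV40 large T antigen, were kept for 24 h in cysteine-free medium (0X, n = 2), complete medium (1X, n = 4) or medium with excess cysteine (10X, n = 4). All 10 libraries came from this 1 line, and poly(A)-bearing RNA was selected before sequencing. The libraries held 34836014 to 61654861 reads on genes. Excess replicate 4 stood apart in several small RNAs without a poly(A) tail, and counts without it are given at the end.

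Histone mRNAs of this family are made mainly during S phase, when DNA is copied, and are the metazoan mRNAs that normally lack a poly(A) tail. Their 3′ ends are formed by a cut just after a conserved stem-loop, which is bound by the stem-loop binding protein SLBP, with the U7 small nuclear RNA and its protein partners placing the cut. A minority of their transcripts can instead run past the stem-loop to a polyadenylation signal. The levels given here are therefore levels in poly(A)-selected RNA, and the total amount of each histone mRNA was not measured.

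A stem-loop in the strict form searched (a perfect 6-base stem opening with GG, a 4-base loop opening with TT, within 150 bases after a stop codon) was found once in 64 of the 69 genes, 22 to 67 bases after the stop codon, with a median of 35. It had 5 distinct sequences. One gene is shown for each, since the place where the annotated exon ends relative to this element divides the genes described below. Capitals mark the 16 bases of the stem-loop, and each sequence is written 5′ to 3′ on the strand of the gene (GRCh38).
H2BC15 (chr6:27839085-27839110, plus strand): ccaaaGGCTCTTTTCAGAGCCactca
H4C8 (chr6:26285126-26285151, minus strand): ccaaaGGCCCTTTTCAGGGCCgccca
H2BC12 (chr6:27146361-27146386, minus strand): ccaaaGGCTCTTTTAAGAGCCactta
H4C14 (chr1:149833027-149833052, plus strand): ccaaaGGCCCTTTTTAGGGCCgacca
H2AC20 (chr1:149887386-149887411, plus strand): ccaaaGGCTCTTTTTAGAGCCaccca

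The form in H2BC15 was carried by 40 genes, that in H4C8 by 10, that in H2BC12 by 9, that in H4C14 by 4 and that in H2AC20 by 1. Every capital stretch opens with GG and closes with CC, and the forms differ in 1 stem pair and in the loop. No match was found in H3C6, H2BC10, H2AC11, H2AC15 and H4C13, which says only that these letters were not in the window searched.

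Promoters of 64 of the 69 genes were found in the RefSeq table (GRCh38.p14). The octamer ATTTGCAT, the motif bound by the factor OCT1 in H2B promoters, was present on either strand in the 300-base window (250 bases before to 50 after the start) of 26 of 64 histone genes (40.6%), against 1.77% of all 35116 promoters. It was found in 14 of 18 H2B and 11 of 16 H2A promoters, in 1 of 11 H3 promoters, and in none of the 6 H1 and 13 H4 promoters. The H3 match was H3C4, whose RefSeq interval is the same as that of H2AC7, so the same bases were counted for both genes. Windows of neighbouring H2A and H2B genes can also overlap, as for H2AC20 and H2BC21, so these counts are not all of separate sites. TATAAA was found in 65.6% of histone promoters and 11.5% of all promoters, and CCAAT in 84.4% and 34.6%. Each motif was counted on both strands, and matches of different motifs may overlap. Within the family, CCAAT was found in every matched H1, H2A, H2B and H3 promoter and in 3 of 13 H4 promoters.

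The promoters of 4 genes with contrasting levels or responses are shown as the 120 bases before the RefSeq start, on the strand of the gene. Capitals mark ATTTGCAT, TATAAA and CCAAT on either strand.
H2BC12 (chr6:27146859-27146978, minus strand): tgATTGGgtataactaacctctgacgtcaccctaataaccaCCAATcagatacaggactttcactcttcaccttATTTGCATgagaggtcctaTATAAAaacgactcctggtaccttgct
H2BC21 (chr1:149886683-149886802, minus strand): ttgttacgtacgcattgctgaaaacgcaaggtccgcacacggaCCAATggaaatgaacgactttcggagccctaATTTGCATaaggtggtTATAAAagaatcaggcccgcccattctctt
H1-2 (chr6:26056471-26056590, minus strand): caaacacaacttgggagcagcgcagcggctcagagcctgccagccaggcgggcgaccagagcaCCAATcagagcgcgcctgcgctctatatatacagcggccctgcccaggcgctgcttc
H4C14 (chr1:149832537-149832656, plus strand): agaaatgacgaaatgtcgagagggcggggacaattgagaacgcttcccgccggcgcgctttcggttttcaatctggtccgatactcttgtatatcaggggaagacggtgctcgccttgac

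H2BC12 and H2BC21 carried all 3 motifs, H1-2 carried CCAAT alone, and H4C14 carried none of them. H2BC15, the gene with the largest called increase in excess cysteine, carried CCAAT but neither the octamer nor TATAAA. A match is a description of letters and not of binding.

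In complete medium the 69 genes together reached a normalized count (reads divided by the library's size factor) of 8205 ± 375 (SD, n = 4), and the 12 genes given in full below held 85.9% of that sum. The sum over all 69 was 0.0182% to 0.0252% of a library. For comparison, H3-3A, a replication-independent H3.3 gene whose mRNA has a poly(A) tail, alone had 20965 ± 650 (SD, n = 4). Many members were close to the detection limit: 34 genes had a mean under 10 in complete medium, and 31 failed the filter of 10 or more in at least 3 of 10 libraries.

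H2BC12 (chr6:27146361-27146855), an H2B gene of 1 exon, held 30.0% of the summed level in complete medium. Its normalized counts were 2409 and 2401 in cysteine-free medium, 2687, 2472, 2323 and 2372 in complete medium, and 2673, 2666, 2806 and 2874 in excess cysteine. The cysteine-free values lay inside the range of complete medium, and 2 of the 4 excess libraries lay above all complete libraries. Of its 75-base windows 61.0% occurred once in the genome, so part of its reads could come from other loci.

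Next by level stood the H4 genes H4C14 (chr1:149832657-149839767) and H4C15 (chr1:149854045-149861159), which encode the same core histone from opposite strands. H4C14 had 1790 and 1887 in cysteine-free medium, 853, 824, 981 and 789 in complete medium, and 1100, 1037, 1082 and 996 in excess cysteine. The 3 media did not overlap for H4C14: cysteine-free was highest, excess followed, and complete was lowest. H4C15 had 1774 and 1867, then 846, 812, 976 and 780, then 1089, 1023, 1067 and 984 in the same order.

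Those values were nearly those of H4C14, and the reason to read the pair as 1 measurement lies in the sequence. None of the 75-base windows of H4C14 or H4C15 was unique in the genome, and 100% of each was shared with the other gene. H2AC18 with H2AC19 and H3C14 with H3C15 were the other pairs of this kind, with 0 unique windows each. In all 10 libraries the reads on the 2 genes of a pair differed by less than the counting SD: by 5 to 18 reads for H4C14 and H4C15, 3 to 21 for H2AC18 and H2AC19, and 1 to 12 for H3C14 and H3C15. The largest differences were 0.36, 0.78 and 0.51 of that SD in the same order. How reads with several positions were assigned is not given in the sources used here. The same reads may have been counted on both genes of a pair, or split between them, which was not tested. Sums that hold both genes may therefore hold the same reads 2 times. Each pair is counted as 2 genes only because the table lists 2.

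**Figure D1:**
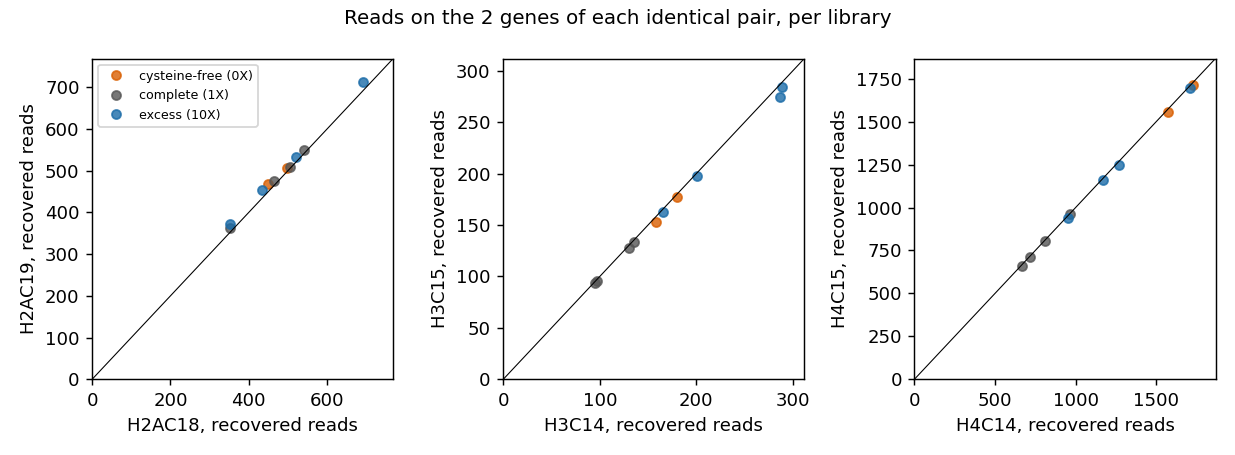
Reads recovered for the 2 genes of each identical pair (H2AC18 and H2AC19, H3C14 and H3C15, H4C14 and H4C15), 1 point per library, coloured by medium, with the line of equality. Every one of the 10 points per panel sits on or next to the line, with differences of at most 21 reads.

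H2AC25 (chr1:228434777-228457873), an H2A gene of the second chromosome 1 cluster with 100% of its windows unique, had 707 and 737 in cysteine-free medium, 714, 619, 687 and 694 in complete medium, and 856, 967, 899.5 and 912 in excess cysteine. All 4 excess libraries were above the other 6. H2AC19 had 576 and 511, then 578, 447, 516 and 521, then 457, 405, 388 and 453, and the excess values overlapped those of complete medium. Its partner H2AC18 had 566 and 489, then 568, 435, 513 and 510, then 444, 382, 370 and 443.

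H1-2 (chr6:26055740-26056470), the most abundant linker histone gene here, had 276 and 287 in cysteine-free medium, 332, 358, 319 and 331 in complete medium, and 470, 495, 439 and 488 in excess cysteine. The media formed 3 separate bands, with cysteine-free lowest and excess highest. H2BC11 (chr6:27125897-27132795) had 337 and 349, then 298, 335, 243 and 306, then 402, 395, 472 and 434. Its excess libraries also stood above the rest.

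H2BC15 (chr6:27838545-27855709) had 105 and 105 in cysteine-free medium, 118.7, 75.4, 80.2 and 96.6 in complete medium, and 297, 288, 270 and 323 in excess cysteine. The excess values were separated from the others by a wide gap. H2BC21 (chr1:149884459-149886682) showed the opposite order, with 260 and 302, then 206, 191, 227 and 154, then 85.4, 92.4, 86.2 and 100. No library of one medium reached into the range of another for H2BC21.

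H3C6 (chr6:26224199-26227473) had 175 and 181 in cysteine-free medium, 111, 129, 161 and 111 in complete medium, and 216, 235, 227 and 209 in excess cysteine. H3C14 (chr1:149840687-149841208) had 180 and 196, then 137, 120, 138 and 104, then 185, 218, 142 and 244. For both H3 genes complete medium held the lowest values without overlap with either other medium.

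**Figure D2:**
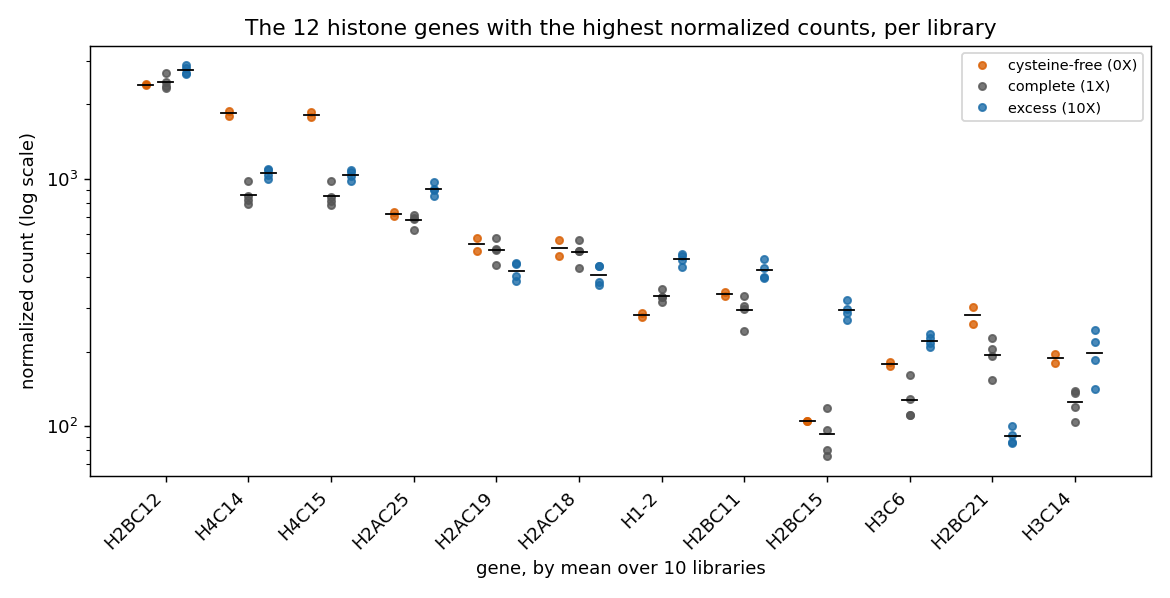
Normalized counts (log axis) of the 12 histone genes with the highest mean over 10 libraries, 1 point per library, with black bars at the group means. H4C14 and H4C15 are highest in cysteine-free medium, H2BC15 is highest in excess cysteine at 270 to 323, and H2BC21 falls from cysteine-free through complete to excess medium.

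Levels of different genes were compared per kilobase of annotated exon. In complete medium H2BC12 was first with 4977 ± 326 normalized counts per kb (SD, n = 4), above every other member. H2AC19 and H2AC18 followed with 965 ± 100 and 950 ± 103 per kb, within each other's spread. H4C14 (459 ± 44.5), H1-2 (458 ± 22.7) and H4C15 (454 ± 45.7) came next and did not differ beyond their SD, followed by H2AC25 with 367 ± 22.4 and H2BC11 with 282 ± 36.9 per kb.

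The position of the annotated 3′ end was then set beside these levels. In 16 genes the annotated exons reached 380 to 4551 bases beyond the stem-loop, in 48 they ended within 18 bases after it, and 5 had no match. Of the 16 genes with longer annotated ends, 15 had a mean of 10 or more in complete medium (H2AC1 was the exception at 0), and their median was 38.2 normalized counts per kb. Of the 48 that end at the stem-loop, 17 had a mean of 10 or more, and the median was 11.5 per kb.

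The 2 groups overlapped widely. H2BC12, H2AC18, H2AC19 and H1-2, which have the highest levels per kb together with the H4C14 and H4C15 pair, end at the stem-loop in the annotation. H4C14, H4C15, H2AC25, H2BC11, H2BC15 and H2BC21 have exons beyond it. Where the reads lay within a gene is not shown by a table of counts per gene, so the length of the transcripts was not measured.

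**Figure D3:**
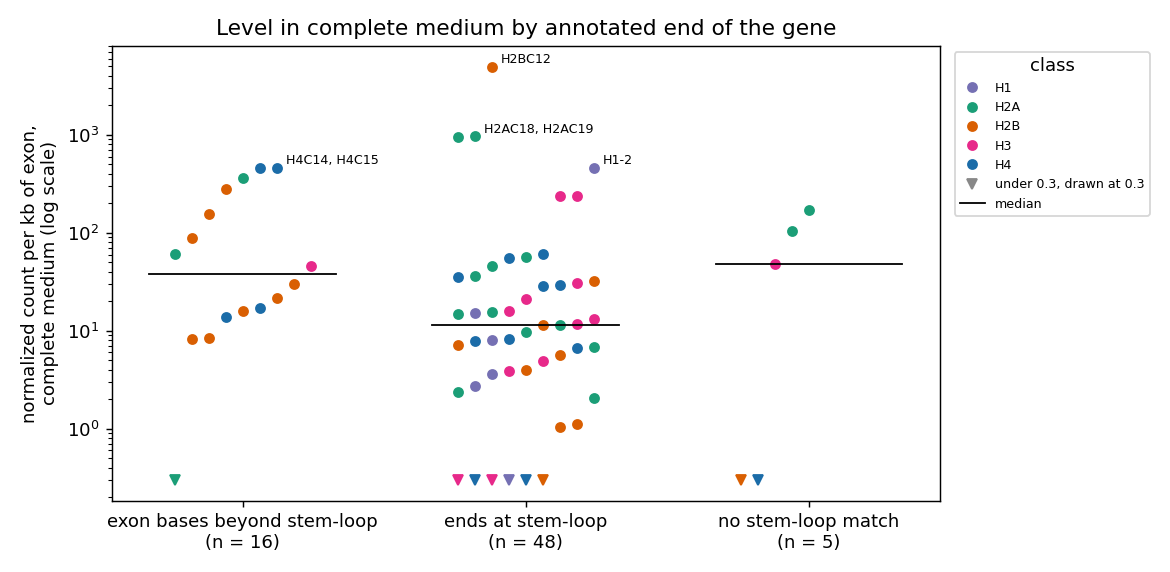
Normalized count per kb of exon in complete medium (log axis, mean of 4 libraries) for all 69 histone genes, grouped by whether the annotation runs beyond the stem-loop (16 genes), ends at it (48) or has no match (5), and coloured by histone class. The medians are 38.2, 11.5 and 47.8 per kb, and the highest single gene, H2BC12, is among those that end at the stem-loop.

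Among the 6 H1 genes, only H1-2, H1-3 and H1-4 passed the filter. H1-4 had 15.9 and 4.4 in cysteine-free medium, 11.6, 9.88, 15.2 and 10.97 in complete medium, and 5.1, 2.2, 6.8 and 18.7 in excess cysteine, overlapping throughout. H1-3 ranged from 1.7 to 15.3 over the 10 libraries, while the means in complete medium were 2.73 for H1-1, 2.18 for H1-5 and 0.00 for H1-6.

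The 31 genes that failed the filter had means over the 10 libraries of 0 to 5.77 and were not tested. No read was counted in any library for H2AC1, H2BC1, H3C8, H4C6 and H4C7. A count of 0 still allows up to 3 reads per library, and this covers counting error only. H1-6, H3C11, H2BC10 and H4C13 had 0 in complete medium and 1 to 8 reads over the other libraries. The remaining 22 were H3C2, H2AC14, H2AC16, H2AC7, H3C1, H2BC9, H2BC13, H2AC8, H2BC7, H2AC21, H2AC12, H4C2, H3C7, H4C4, H1-5, H2BC8, H4C1, H1-1, H2BC14, H3C3, H2AC4 and H2BC3.

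In cysteine-free medium, H4C14 and H4C15 rose and no other histone gene passed limma's test. H4C14 went from 862 ± 83.6 (SD, n = 4) to 1839 ± 68.1 (SD, n = 2), 2.14-fold higher with a log2 fold change of 1.10 ± 0.09 (SE; limma adjusted p = 2.73e-06). H4C15 went from 853 ± 85.8 to 1821 ± 65.5, with a log2 fold change of 1.10 ± 0.09 (limma adjusted p = 3.07e-06). Of the 38 genes tested, 2 were higher, or 1 pair, where 7.39% of all 29045 tested genes were called higher. None was lower by limma, edgeR or DESeq2, where limma called 8.51% of all genes lower, and 1 was lower at an unadjusted p under 0.05.

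The other 36 genes did not pass, with 28 of them at a positive and 8 at a negative difference. The median log2 fold change of the 38 was 0.26, against 0.00 over all genes tested. H3C10, an H3 gene, was the largest of those near the threshold, at 97.7 ± 13.2 against 57.8 ± 14.2 (log2 0.77 ± 0.25, limma adjusted p = 0.0341). H3C14 (log2 0.60, adjusted p = 0.0169), H2BC21 (log2 0.54, adjusted p = 0.0238) and H3C6 (log2 0.49, adjusted p = 0.0574) had cysteine-free libraries above all complete libraries without passing limma's test. With edgeR, 3 histone genes were called higher, H3C14 among them (edgeR adjusted p = 0.00991), and DESeq2 called 2. For H2BC12, the most abundant member, the difference was −0.03, with a 95% interval of −0.17 to 0.10.

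The count of calls in this comparison rested in part on 1 library: without complete replicate 3 it was 7 higher. Over all 29045 tested genes, the calls higher then went from 2145 to 3036. The H4C14 and H4C15 pair carried most of the change in the sum. The cysteine-free sum exceeded that of complete medium by 2489 normalized counts, and the pair made up 78.1% of these. The labels call the libraries biological replicates, and with 2 cysteine-free libraries all p-values measure only the spread between these samples.

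In excess cysteine, 14 of the 38 tested histone genes rose and 3 fell, where 23.1% of all tested genes were called higher and 22.9% lower. The median log2 fold change was 0.29, against 0.01 over all genes. With each identical pair counted once, 12 genes rose and 3 fell. Among those that fell, H4C3 passed the filter only through complete medium. H2BC15 rose most, from 92.7 ± 19.6 to 294 ± 22.1 (SD, n = 4 each), 3.20-fold higher (log2 1.68 ± 0.14, limma adjusted p = 1.65e-08). H2BC21 fell from 195 ± 31.0 to 91.0 ± 6.89 (log2 −1.08 ± 0.13, limma adjusted p = 2.75e-06). These are 2 H2B genes, so the class moved in both directions: 4 of its 10 tested genes rose, 1 fell and 5 did not pass.

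Among the H2B genes, H2BC17 rose from 15.2 ± 9.17 to 41.1 ± 4.04 (log2 1.53 ± 0.33, limma adjusted p = 0.000717). H2BC11 rose 1.45-fold (adjusted p = 0.000224) and H2BC5 1.36-fold (adjusted p = 0.00815), the latter with overlapping libraries and a call that was lost on leaving out any of 6 of the 8 libraries (adjusted p up to 0.0403). H2BC12 was 1.12-fold higher and stayed just short of the threshold (log2 0.16 ± 0.05, adjusted p = 0.0128), and it passed with edgeR (0.00867) and DESeq2 (0.00951).

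Of the 9 tested H2A genes, 3 rose and 1 fell, where 23.1% of all tested genes were called higher and 22.9% lower. H2AC15 rose from 51.3 ± 21.7 to 98.0 ± 9.10 (log2 1.02 ± 0.25, limma adjusted p = 0.00218) and H2AC6 from 101 ± 27.2 to 166 ± 11.97 (log2 0.75 ± 0.16, adjusted p = 0.000676). H2AC25 rose 1.34-fold (log2 0.42 ± 0.07, adjusted p = 3.15e-05). H2AC18 fell by 0.30 on the log2 scale (adjusted p = 0.00949) while its identical partner H2AC19 missed the threshold (log2 −0.27, adjusted p = 0.0135). The call for H2AC18 was lost when any of 5 of the 8 libraries was left out, and under equal totals (adjusted p = 0.0738).

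Of the 7 tested H3 genes, H3C6 (log2 0.80 ± 0.13, limma adjusted p = 3.60e-05), H3C14 (log2 0.64 ± 0.15, adjusted p = 0.00201) and H3C15 (log2 0.62 ± 0.15, adjusted p = 0.00220) rose and the other 4 did not pass. The calls of H3C14 and H3C15, which are 1 identical pair, were lost without excess replicate 2 or without excess replicate 4 (adjusted p up to 0.0114 and 0.0124). Of the 9 tested H4 genes, 3 rose, among them the identical pair H4C14 and H4C15, and 1 fell. Both classes stand beside 23.1% of all tested genes called higher and 22.9% lower. H4C8 rose from 29.6 ± 7.88 to 61.7 ± 12.2 (log2 1.05 ± 0.23, adjusted p = 0.000822), and the H4C14 and H4C15 pair rose 1.23-fold and 1.22-fold (adjusted p = 0.00158 and 0.00194). H4C3 fell from 11.9 ± 1.99 to 3.80 ± 0.576 (log2 −1.42 ± 0.41, adjusted p = 0.00774), a call that was lost when any of the 8 libraries was left out (adjusted p of 0.0108 to 0.0241). H4C3 had 4 to 12 reads per library and reached a normalized count of 10 in complete libraries only. It thus passed the filter only through the medium where it was high. That selection favours a fall against complete medium, so the call cannot be read as a fall.

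H1-2 was the single H1 gene that passed: it rose from 335 ± 16.6 to 473 ± 25.2, 1.41-fold (log2 0.50 ± 0.08, limma adjusted p = 2.97e-05). In cysteine-free medium it was at 281 ± 7.92, a log2 difference of −0.25 from complete medium that did not pass (adjusted p = 0.11). H1-3 (log2 0.54) and H1-4 (log2 −0.79) did not pass in excess cysteine.

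**Figure D4:**
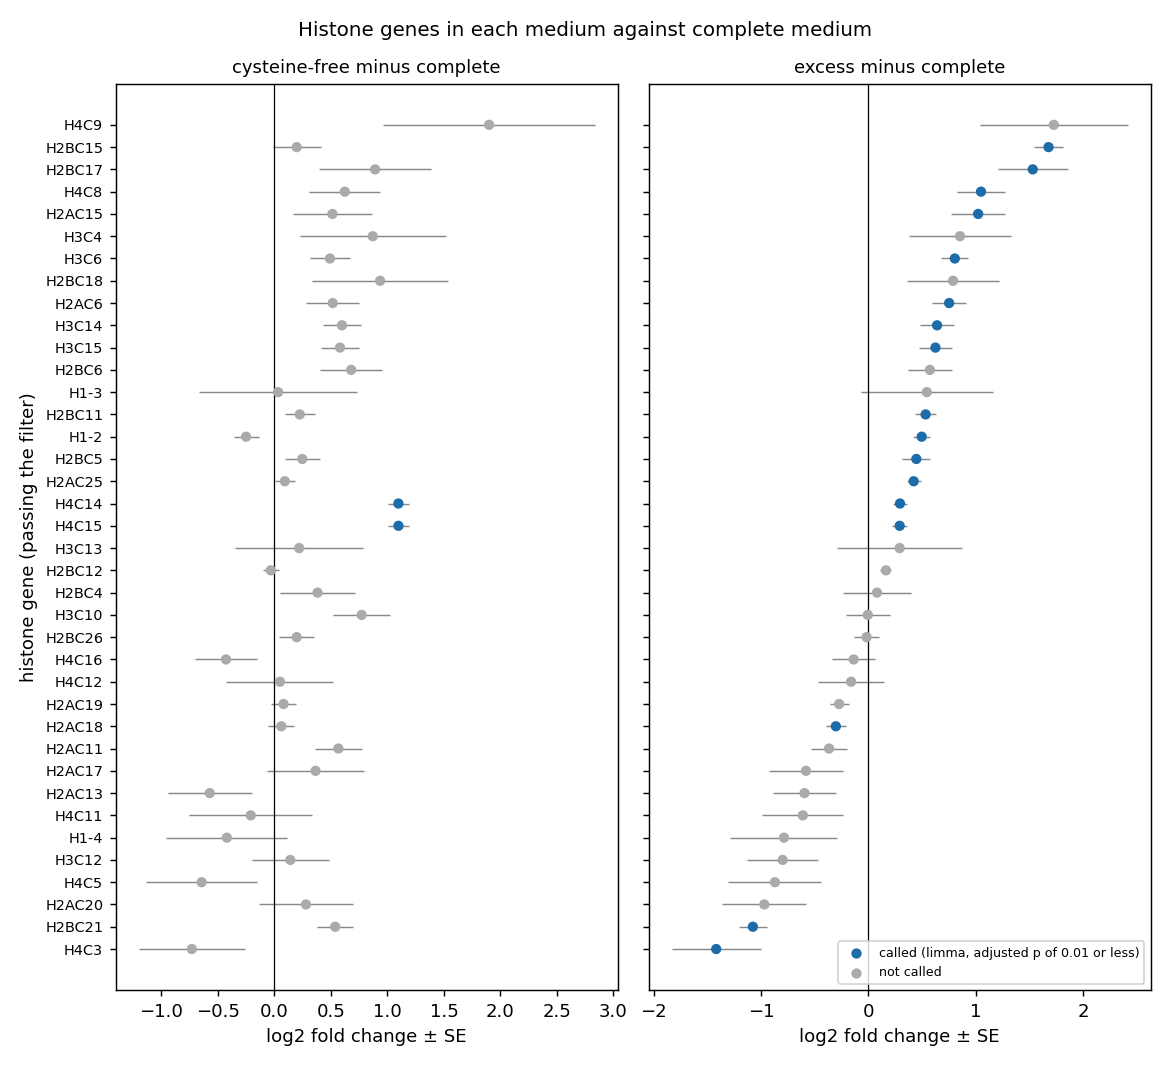
Log2 fold changes with SE of the 38 histone genes that passed the filter, cysteine-free minus complete on the left and excess minus complete on the right, ordered by the right panel. Called genes are in blue: H4C14 and H4C15 on the left at 1.10, and 14 higher and 3 lower genes on the right, from H2BC15 at 1.68 to H4C3 at −1.42. H4C3 passed the filter only through complete medium.

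By annotated end, 8 of the 15 tested genes with exons beyond the stem-loop rose in excess cysteine and H2BC21 fell. The identical pair H4C14 and H4C15 was among those 8. Of the 20 tested genes that end at the stem-loop, 4 rose (H2BC17, H1-2 and the identical pair H3C14 and H3C15) and 2 fell (H4C3, H2AC18). H4C3 passed the filter only through complete medium. Over all tested genes, 23.1% were called higher and 22.9% lower. Of the 3 without a match, H3C6 and H2AC15 rose, and H2AC11 was lower without passing (log2 −0.37, limma adjusted p = 0.0673). The median log2 fold changes were 0.42, −0.22 and 0.80 in the same order.

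Both comparisons above share the 4 complete libraries, so the 2 treated media were also compared with each other. Between excess and cysteine-free medium 5 histone genes were higher in excess and 7 lower, where 24.4% and 23.6% of all tested genes were called. With each identical pair counted once, 5 were higher and 5 lower. H2BC21 was lowest relative to cysteine-free medium (91.0 against 281, log2 −1.61 ± 0.14, limma adjusted p = 6.84e-10), followed by H2AC11 (log2 −0.93, adjusted p = 0.000132), H4C15 (log2 −0.81) and H4C14 (log2 −0.80, adjusted p = 1.95e-11). H3C10 (log2 −0.78, adjusted p = 0.00255), H2AC18 (log2 −0.36) and H2AC19 (log2 −0.35) were also lower.

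Higher in excess than in cysteine-free medium were H2BC15 (log2 1.48 ± 0.12, limma adjusted p = 6.66e-11), H1-2 (log2 0.75 ± 0.09, adjusted p = 7.08e-08), H2AC25 (log2 0.33, adjusted p = 0.000164), H2BC11 (log2 0.31, adjusted p = 0.00573) and H2BC12 (log2 0.20, adjusted p = 0.00116). H2BC15 was at 105 in cysteine-free and 294 in excess medium. Calls lost on leaving out 1 of the 6 libraries were those of H2BC11 (4 of the 6 libraries), H2BC12 (2 of 6), and H2AC11, H2AC18, H2AC19 and H3C10 (1 of 6 each).

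Summed over all 69 genes, the normalized count was 10695 ± 113 in cysteine-free (n = 2), 8205 ± 375 in complete (n = 4) and 9684 ± 225 in excess medium (n = 4, SD). The sums of the 3 media did not overlap, with cysteine-free 1.30 times and excess 1.18 times complete medium. The order of the 2 treated media turned when only the 57 genes with at least 50% of windows found once were summed: cysteine-free was then 1.07 times and excess 1.23 times complete medium. With each identical pair summed once the ratios were 1.21 and 1.20. In bulk samples, a different share of cells in S phase and a different amount of histone RNA per cell cannot be told apart.

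By class, the H4 sum was 3826 ± 105 in cysteine-free, 1878 ± 147 in complete and 2267 ± 86.5 in excess medium. Nearly all of it was the H4C14 and H4C15 pair, with reads that cannot be split: the other 13 H4 genes summed to 166 ± 28.7, 163 ± 48.2 and 173 ± 13.3, with overlapping libraries. The H3 sum was 712 ± 29.4, 495 ± 53.3 and 724 ± 87.4, with both treated media above complete medium in every library. The H2B sum was 3628 ± 22.6, 3439 ± 206 and 4066 ± 169, and the H2A sum 2226 ± 38.3, 2036 ± 190 and 2133 ± 80.9, whose libraries overlapped. The H1 sum was 304 ± 5.38, 358 ± 19.2 and 493 ± 32.5, and thus the class in which cysteine-free medium was below complete medium.

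The companion genes of histone mRNA were followed from fixed lists. Among 22 genes of histone pre-mRNA processing and transcription, 1 was higher and 2 lower in cysteine-free medium, and 8 were higher and 10 lower in excess cysteine (medians −0.06 and −0.17). Of all tested genes, 7.39% were higher and 8.51% lower in cysteine-free medium, and 23.1% and 22.9% in excess. SLBP, which binds the stem-loop, was not called in cysteine-free medium (log2 −0.14 ± 0.06, limma adjusted p = 0.0777) and fell slightly in excess (log2 −0.18 ± 0.04, adjusted p = 0.00141). In excess cysteine the U7 ring proteins differed in direction, with LSM11 higher (log2 0.54 ± 0.06, adjusted p = 3.59e-07) and LSM10 lower (log2 −0.64 ± 0.07, adjusted p = 3.71e-07).

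ZNF473, a zinc-finger protein of the U7 machinery, rose in excess from 922 ± 169 to 2020 ± 98.8 (log2 1.15 ± 0.10, limma adjusted p = 2.71e-08) and was not called in cysteine-free medium (log2 0.35, adjusted p = 0.0761). NPAT, the coactivator of histone transcription at the histone locus body, rose by 0.32 (adjusted p = 0.000383), CASP8AP2, another protein of that body, by 0.42 (adjusted p = 1.73e-05), and HINFP, the activator of H4 genes, by 0.83 (adjusted p = 3.64e-08). SRRT, which links the cap-binding complex to 3′-end formation, was lower in both media (log2 −0.37 and −0.70, adjusted p = 8.75e-05 and 5.83e-11), as was the cap-binding subunit NCBP2 (log2 −0.44 and −0.35). NELFE, a subunit of the elongation factor NELF, rose in cysteine-free medium (log2 0.24), and CPSF4, a 3′-end processing factor (log2 0.86), and cyclin E2 (CCNE2, log2 0.66) rose in excess.

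Of 12 genes of histone mRNA decay, 1 rose and 4 fell in cysteine-free medium, and 4 rose and 5 fell in excess, beside 7.39% and 8.51% of all tested genes in the first comparison and 23.1% and 22.9% in the second. XRN1, a 5′-to-3′ exonuclease, rose in both (log2 0.61 ± 0.12 and 0.62 ± 0.09, limma adjusted p = 0.00169 and 9.81e-06). ERI1, an exonuclease that trims the stem-loop end, rose in excess (log2 0.45, adjusted p = 1.02e-05) and was at −0.02 in cysteine-free medium, which was not called. The decay-ring subunits LSM1 (log2 −0.41 and −0.30) and LSM3 (log2 −0.30 and −0.40) fell in both media, and the uridylyl transferase TUT7 (log2 −0.32) and the kinase SMG1 (log2 −0.28) fell in cysteine-free medium. TUT4, a uridylyl transferase, rose by 0.59 in excess (adjusted p = 2.85e-08), and LSM4, a subunit of the decay ring, fell by 0.71 (adjusted p = 1.30e-10).

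Of 18 histone chaperones, 4 fell in cysteine-free medium, and 4 rose and 5 fell in excess. In excess these counts were near the 23.1% and 22.9% of all tested genes, and in cysteine-free medium 8.51% of all genes fell. NASP, a chaperone of H3 and H4, fell in excess from 13598 ± 272 to 8110 ± 174 (log2 −0.75 ± 0.03, limma adjusted p = 1.50e-11), and IPO4, an importer of H3 and H4, fell by 0.29 in cysteine-free and 0.77 in excess medium (adjusted p = 0.00254 and 7.01e-10). DAXX, an H3.3 chaperone, fell by 0.33 in cysteine-free medium (adjusted p = 0.00171). RBBP7 fell in both media (log2 −0.23 and −0.32), SUPT16H, a FACT subunit, fell in excess (log2 −0.45), ASF1A rose in excess (log2 0.42), and SPTY2D1 was lower in cysteine-free (log2 −0.32) and higher in excess medium (log2 0.21).

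The replication-independent histone genes did not follow a single direction either. Of 14 tested, 2 rose and 1 fell in cysteine-free medium, and 1 rose and 5 fell in excess, where all tested genes gave 7.39% and 8.51%, then 23.1% and 22.9%. CENPA, the centromeric H3, fell by 0.79 in excess (adjusted p = 8.17e-08), H3-3A by 0.43 (adjusted p = 2.00e-08) and H2AX by 0.37 (adjusted p = 9.61e-06), while MACROH2A2 rose by 0.32 in cysteine-free medium (adjusted p = 0.00654). H2AZ1 fell in both media, by 0.40 and 0.20 (adjusted p = 0.000107 and 0.000185).

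Genes of the cell cycle were read beside the histone genes, against the shares of all tested genes called higher and lower (7.39% and 8.51% in cysteine-free, 23.1% and 22.9% in excess medium). Of 20 S phase genes, 4 rose and 1 fell in cysteine-free medium (median 0.13), and 5 rose and 7 fell in excess (median −0.02). CDT1 (log2 0.33 and 0.81) and CDC45 (log2 0.32 and 0.43), which load and start the replicative helicase, rose in both media. The helicase subunit MCM5 rose (log2 0.36) and the flap endonuclease FEN1 fell (log2 −0.36) in cysteine-free medium, and in excess CDC6 rose (log2 0.59) and cyclin A2 (CCNA2, log2 −0.64) fell. Of 12 genes of G1 arrest and the p53 response, 2 rose and 4 fell in cysteine-free medium, and 7 rose and 2 fell in excess, among them CDKN1A, the p21 inhibitor (log2 −0.44 and 1.96; from 2199 ± 304 in complete to 8490 ± 191 in excess medium). CCND1, cyclin D1, fell in both media (log2 −1.28 and −1.25), BTG2 fell in cysteine-free (log2 −1.09) and rose in excess medium (log2 0.51), CDKN1B rose in cysteine-free medium (log2 0.39), and GADD45A (log2 0.37 and 1.90) and, in excess, GDF15 (log2 5.30) rose. The summed level of that list was 15303 to 15642 in cysteine-free, 17045 to 19509 in complete and 37194 to 38608 in excess medium. The part of the cell cycle in the histone differences was not tested.

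Since most histone mRNAs lack a poly(A) tail, a list of 20 RNAs chosen as mainly lacking one was read as a marker of what passed the selection. How far MALAT1 and NEAT1, which are on the list, lacked one in these cells was not tested. Of the 11 that passed the filter, 2 rose (MALAT1, log2 0.69; NEAT1, log2 0.72) and 2 fell (RN7SL1, log2 −1.29; RN7SL2, log2 −1.37) in cysteine-free medium, and RNU5A-1 alone passed, higher, in excess (log2 1.28, limma adjusted p = 0.00837). The shares of all tested genes called higher and lower were 7.39% and 8.51% in cysteine-free medium, and 23.1% and 22.9% in excess. In all, 9 of the 11 were at a negative difference in cysteine-free medium (median −0.62) and 9 of 11 at a positive one in excess (median 0.27). The summed level of the list was 12713 to 13474 in cysteine-free, 9113 to 13907 in complete and 11411 to 16977 in excess medium, and a large part of it was MALAT1 and NEAT1. Without these 2 it was 1977 and 2132 in cysteine-free, 2512, 6504, 5909 and 6713 in complete, and 5281, 6299, 3915 and 9884 in excess medium, so that cysteine-free medium lay below every other library.

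Excess replicate 4 stood apart on this list, with RN7SK at 588 against 21.8 to 30.4 in the other 3 excess libraries, RMRP at 167 against 4.35 to 5.14 and RPPH1 at 177 against 6.42 to 17.4. Without it, 11 histone genes were called higher and 2 lower in excess against complete medium. Of all 29045 tested genes, 5881 were then called higher and 6099 lower. H2BC15 was at a log2 fold change of 1.63 and H2BC21 at −1.12, and the summed histone level was 1.17 times that of complete medium. The part of selection in the histone differences was not tested. The markers of HEK293T cells PAX2, VIM, NEFM and NEFL had means of 133 to 28292 in complete medium, and of 3 liver markers 1 passed the filter, with 0 of 3 T cell markers.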

How the data were processed

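Per the labels and the methods, RNA of HEK293T cells was poly(A)-selected, made into directional libraries and sequenced in pairs of 75 bases. Per the submitters' processing notes, the authors used STAR 2.7.10b, GRCh38, HTSeq, R 4.3.3 and DESeq2 (1.42.0). The methods name featureCounts as the counter. The Ensembl release, the strand setting and the treatment of reads with several positions are not given in the sources used here. The deposited table holds a signal per gene and library, the read count divided by a DESeq2 size factor ("normalized count"). Dividing a library by its smallest step gave whole reads for 100% of its values (tolerance 0.0001).

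Genes at 10 or more in at least 3 of 10 libraries were kept (29045). Log2(value + 1) was fitted with limma 3.58.1 (eBayes with a trend, 2-sided, 2 groups at a time), and p-values were adjusted by Benjamini-Hochberg across those 29045 genes. A gene was called where its adjusted p did not exceed 0.01. Fold changes are on that log2 scale, and for low genes they can lie above or below the ratio of the mean counts. On the recovered reads, edgeR 4.0.16 (quasi-likelihood) called 4941 genes in cysteine-free against complete medium, 13525 in excess against complete medium and 13834 in excess against cysteine-free medium, and DESeq2 1.42.0 called 5316, 13816 and 13125. The fit was tested on simulated data.

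Exons and positions come from GENCODE 44 (61463 of 78894 IDs found), 75-base windows from GRCh38, and promoters from RefSeq. The members and lists were chosen with earlier results of these data known. Given in full were the 12 highest genes, the 6 largest non-overlapping called increases and decreases per comparison, all H1 genes, and, of each list, SLBP, NPAT, CASP8AP2, LSM10, LSM11, ZNF473 and the 4 largest called changes in each medium against complete medium; CCNE2 and SMG1 came from the comparison of the treated media. Genes named near the threshold (H3C10, H3C14, H2BC21, H3C6 in cysteine-free medium; H2BC12, H2AC19, H2AC11, H2BC5 in excess) and H2AC20, H4C16 and H3C15 were named after their values were seen. Of the 69 genes, 11 share exon bases with another gene (H2BC26, H2AC6, H2BC6, H4C8, H2BC4, H3C12, H2BC18, H2AC17, H3C4, H2AC7, H2AC21). The methods state that reads over more than 1 gene were left out of the counts, and with the strand setting not given the values of these 11 are uncertain. The values of 1 gene of the replication-independent histone list are not reported here.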

Additional observations from a re-analysis of the deposited data

Results flagged for a closer look

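Of 44 groups of 4 libraries examined among the histone genes given in full, 1 held a library that stood apart by Dixon's ratio, where chance gives about 1 in 20, or 2.2 groups. H4C3 in complete medium had 10.5, 10.97, 11.2 and 14.8, and complete replicate 2 was the highest, with a gap to its neighbour of 0.846 of the range.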

How the results depend on the processing

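In cysteine-free against complete medium, 2 histone genes were higher. The count was 6 at an adjusted p of 0.05, 1 with identical pairs counted once, and 2 to 7 when leaving out each complete library. Without the filter on low values it was 0, with H4C14 at a limma adjusted p of 0.0158. In excess against complete medium, 14 higher became 4 without the filter and 11 to 14 on leaving out a library, and 3 lower became 1 under equal totals, 6 at an adjusted p of 0.05, and 1 to 3 on leaving out a library. Equal totals also moved the median of all genes by 0.10, to 0.12, and the share of calls that were higher from 50.3% to 61.8% in that comparison, and from 50.8% to 60.0% between the 2 treated media. In excess against cysteine-free medium, 5 higher became 2 without the filter, 3 with all 3 groups in one fit, and 3 to 5 on leaving out a library, and 7 lower became 4 and 4 to 8. Without the filter, the calls over all genes went from 2145 to 243 higher in cysteine-free against complete medium. They went from 6721 to 4508 higher and from 6651 to 4898 lower in excess against complete medium. Between the treated media they went from 7087 to 3398 higher and from 6867 to 3479 lower. The cause of the changes in this paragraph was not tested.

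The summed level in cysteine-free over complete medium was 1.30, and 1.07 with genes mostly found once, 1.21 with identical pairs counted once, and 1.28 to 1.33 on leaving out a library. In excess over complete medium it was 1.18, 1.27 under equal totals, and 1.16 to 1.20. In excess over cysteine-free medium it was 0.905, 0.958 under equal totals, 0.985 with pairs counted once, and 1.14, reversed, with genes mostly found once, and 0.895 to 0.912. No called fold change of a histone gene given in full changed sign under the settings run. Uncalled ones near 0 did, such as H2BC12 (−0.06 to 0.01) and H2AC18 (−0.05 to 0.17) in cysteine-free against complete medium, and H3C14 (−0.07 to 0.19) between the treated media, on leaving out a library.

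The replicate block gave 3 higher in excess against cysteine-free medium in place of 5 and 3 higher in cysteine-free against complete medium in place of 2. In both comparisons, replicates with no cysteine-free library do not bear on the difference between media in that fit. Over all tested genes, the calls higher went from 7087 to 6214 and from 2145 to 3147 in the same order. The deviations of same-numbered libraries correlated by −0.0281 to 0.0392. The labels name no pairing, and these correlations do not settle whether the samples share more than a number. The paired fit is therefore only a check. Low counts limit the 31 genes not tested, and 2 cysteine-free libraries limit that comparison.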
